A study of Homo sapiens with 8 samples.

Results

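The genes described here are 10 markers and factors of the epithelial-mesenchymal transition (EMT), looked up by symbol in a table of read counts for 23393 genes. They were CDH1 and EPCAM for epithelial cells, CDH2, VIM and FN1 for mesenchymal cells, and the transcription factors ZEB1, ZEB2, SNAI1, SNAI2 and TWIST1. All 10 were in the table and 9 passed the filter on low counts. The exception was TWIST1, which had 0 counts in all 8 libraries. CDH1 passed through its 4 ρ0 libraries and CDH2 through the 2 ρ0 control libraries, the only ones in which they had at least 10 counts, so both had to be higher there to be tested at all. EPCAM had at least 10 counts in 6 libraries, and the other 6 tested members in all 8.

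RNA was sequenced from 2 lines in 4 groups of 2 libraries. The parental cells were MDA-MB-231, a long-established line from human breast cancer with little ASS1, without which cells depend on arginine from the medium. The ρ0 cells carry the clone number 27 in the labels. The study describes ρ0 clones of this line, made by removing mitochondrial DNA with ethidium bromide. Its methods give no clone number and call the ρ0 line a gift. Whether the clone came from the parental line could not be checked from counts per gene, and CDH1, EPCAM, ASS1, KRT7 and GJA1 were among the genes that set the lines far apart. Each line was kept in full medium (DMEM with high glucose and 10% fetal bovine serum) as the control or was starved of arginine for 48 h. The labels give the starvation as 0.3 µg/mL arginine deiminase (ADI), an enzyme that breaks arginine down, added to full medium, whereas the study's methods describe medium without arginine. Pyruvate, uridine and ethidium bromide were in the ρ0 medium and are not listed for the parental cells, so that line, clone and medium cannot be told apart in any comparison of the lines. No source says that the libraries of a group came from separate cultures, and the p-values below measure only the spread between these libraries.

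The libraries held 25259503 to 31022155 counts. Values are CPM, counts scaled to library size with a TMM correction for composition, and levels of different genes are compared only as CPM per kilobase of exon. The ρ0 control libraries stood apart from each other, their biological coefficient of variation being 25.1% where the other 3 groups had 1.84% to 5.16%. The members' responses in ρ0 cells and differences between the lines in full medium are therefore also given without either library. Their interactions are so given only in part, and values of the further genes named are not. ASS1 had 1 to 10 counts in the parental libraries and 183 to 684 in the ρ0 libraries, so its low level held for the parental label only. The luminal markers ESR1 and PGR were at 6 counts or fewer in every library, and CD3E of T cells was at 0. Transcripts of the mitochondrial genome, which would check the ρ0 label, were not analysed here.

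In an epithelial sheet, E-cadherin (the CDH1 protein) holds neighbouring cells together. During EMT, factors of the SNAI, ZEB and TWIST families bind E-box sequences and repress CDH1 and other epithelial genes, while vimentin filaments and a fibronectin matrix become prominent. The microRNAs of the miR-200 family repress ZEB1 and ZEB2, and the ZEB proteins in turn repress the miR-200 genes. Many carcinoma lines sit between the epithelial and mesenchymal ends, and MDA-MB-231 is commonly used as a mesenchymal breast cancer line.

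Upon arginine starvation of the parental cells, the 4 detected factors among the members rose while vimentin and fibronectin fell. SNAI2 rose most, 4.32-fold, followed by SNAI1, ZEB2 and ZEB1, whereas VIM fell 3.28-fold and FN1 3.39-fold. Of the 9 tested members, 4 were higher and 3 were lower at an adjusted p under 0.05 and a log2 fold change past 1 (edgeR's quasi-likelihood test, Benjamini-Hochberg adjustment over 15262 genes). By the same rule 34.9% of all tested genes were called in this comparison, 12.7% higher and 22.1% lower. Without the fold threshold the same 7 members were called, against 65.9% of all genes.

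In ρ0 cells SNAI2, ZEB1 and ZEB2 rose as well, whereas SNAI1 fell together with VIM and CDH1. By the rule with the fold threshold 1 member was called, CDH1, which fell 3.31-fold, against 12.4% of all genes (4.22% higher and 8.19% lower). At an adjusted p under 0.05 and any fold, 3 members rose and 3 fell, against 41.3% of all genes called.

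Between the lines in full medium, CDH1 and EPCAM were read almost only in ρ0 cells, and VIM and SNAI2 were higher there as well. Of the 9 tested members, 4 were higher and 1 was lower in ρ0 cells, against 30.9% of all genes called (13.6% higher and 17.3% lower). Under starvation 4 were again higher and 1 lower, against 35.5% of all genes (18.7% and 16.8%). CDH1 and, in full medium, CDH2 were among those higher, a direction that the filter had built in. With at least 10 counts required in every library, which leaves out CDH1, CDH2 and EPCAM, the counts were 1 higher and 1 lower in full medium and 2 higher and 1 lower under starvation. At any fold 5 were higher and 2 lower in each medium, against 62.3% of all genes in full medium and 66.5% under starvation. Groups of 2 libraries that do not overlap were common, at 89.2% of all genes for starvation in parental cells, 67.5% in ρ0 cells, and 77.1% and 90.8% between the lines in full and arginine-starved medium.

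**Figure D1:**
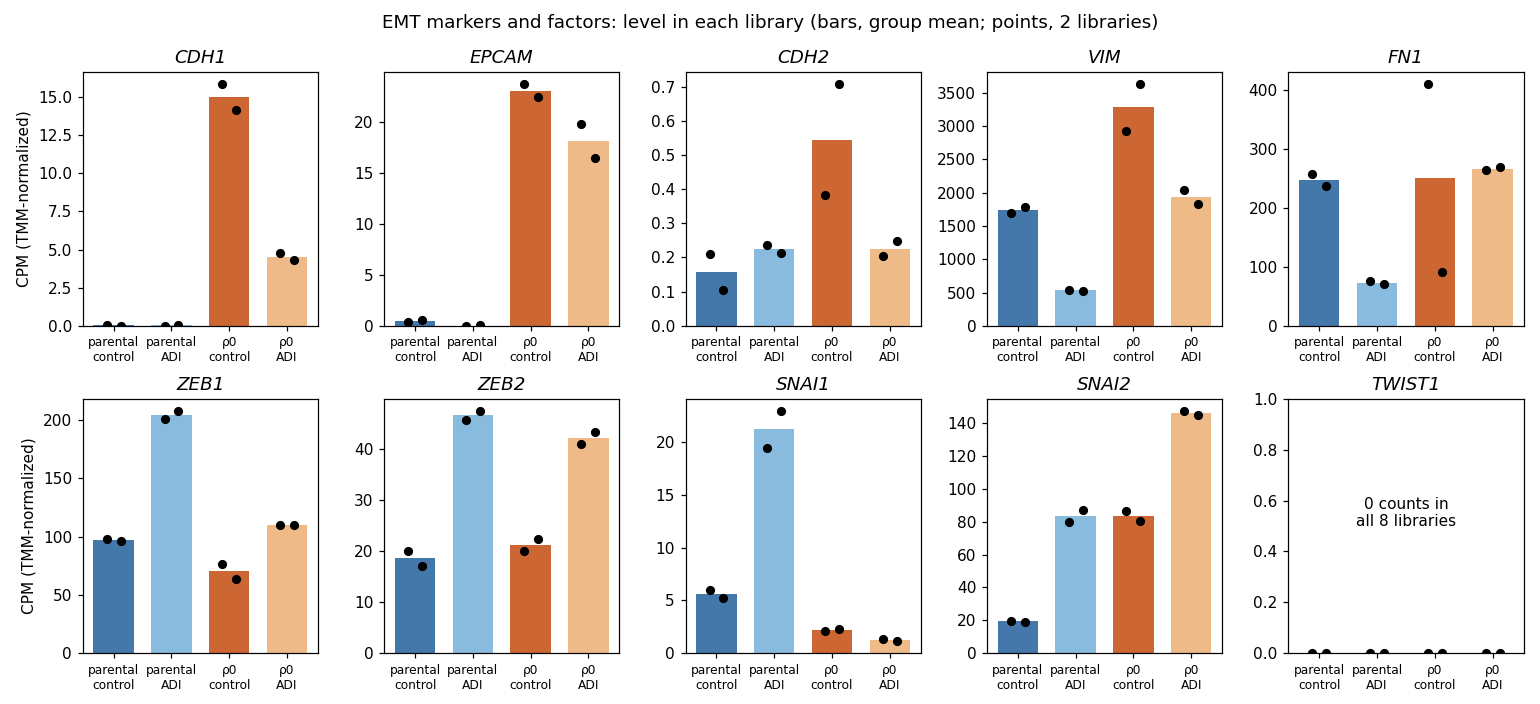
Level of each of the 10 members in CPM (y axis, a separate linear scale for each gene) in the 4 groups; bars are group means and points are the 2 libraries. CDH1 and EPCAM stand near 0 in parental cells and at 4.54 to 23.1 CPM in ρ0 cells, VIM falls with ADI in both lines, and the FN1 points of the ρ0 control group lie far apart.

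CDH1, the cadherin of epithelial junctions, had 2 and 0 counts in the parental control libraries and 0 and 2 in the starved ones. In ρ0 cells it had 457 and 440 counts in full medium and 141 and 104 under starvation. Every ρ0 library was thus far above every parental library, and within ρ0 cells the starved libraries were below both controls. The ρ0 control mean was 15.0 ± 1.20 CPM (SD, n = 2) and the starved mean 4.54 ± 0.324 CPM. Against a floor of 3 counts per library, CDH1 was at least 155-fold higher in ρ0 cells in full medium and at least 40.3-fold higher under starvation. These folds are a description with no test, since CDH1 was tested only through its ρ0 libraries. The fall within ρ0 cells was 1.72 on the log2 scale (SE 0.26, adjusted p = 0.00197, edgeR). No fold is given for starvation in parental cells, where both groups lay at the floor.

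EPCAM encodes a cell surface adhesion protein of epithelia. Its counts were 14 and 15 in the parental control libraries, 0 and 1 in the starved parental libraries, 684 and 697 in the ρ0 control libraries, and 586 and 397 in the starved ρ0 libraries. The few reads of parental cells were nearly gone after starvation, and the ρ0 libraries lay far above in both media. In full medium EPCAM was 49.0-fold higher in ρ0 cells (log2 fold change 5.61, SE 0.23, adjusted p = 2.22e-06, edgeR), and under starvation it was at least 161-fold higher. Starvation lowered it at least 4.18-fold in parental cells (adjusted p = 0.000661, edgeR), from a mean of 0.470 CPM. In ρ0 cells the means were 23.1 ± 0.929 and 18.1 ± 2.38 CPM, a log2 change of -0.35 (SE 0.16) that missed the threshold (adjusted p = 0.124, edgeR). The change passed at -0.30 without ρ0 control replicate 1 and at -0.37 without replicate 2. The spread of the control pair, the widest of the 4 groups, no longer enters those fits.

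VIM, the intermediate filament of mesenchymal cells, was the most abundant member per kilobase in all 4 groups. Its level was 1697 and 1786 CPM in parental control libraries, 540 and 522 CPM in starved parental libraries, 2932 and 3635 CPM in ρ0 control libraries, and 2034 and 1826 CPM in starved ρ0 libraries. The groups did not overlap, and even starved ρ0 cells stood above parental cells in full medium. Ranked per kilobase among all genes, VIM was 8th in both parental control libraries and 114th and 126th after starvation, while it stayed between 5th and 11th in the ρ0 libraries. With starvation VIM changed in parental cells by -1.71 on the log2 scale (SE 0.12, adjusted p = 2.52e-05) and by -0.77 (SE 0.12, adjusted p = 0.00227) in ρ0 cells. In full medium VIM was 1.89-fold higher in ρ0 cells (adjusted p = 0.000401), and under starvation 3.63-fold higher (adjusted p = 1.25e-05, all by edgeR).

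FN1 encodes fibronectin, a secreted matrix protein. It stood at 257 and 237 CPM in parental control libraries and at 75.3 and 70.7 CPM in starved ones, and the starved ρ0 libraries held 264 and 268 CPM. The ρ0 control libraries held 410 and 91.1 CPM, a 4.50-fold gap between replicates that lay on both sides of every value in parental control and starved ρ0 cells. The fall in parental cells was -1.76 (log2, SE 0.56, adjusted p = 0.026, edgeR). The values of FN1 that involve ρ0 control cells turned on which control library was used. The response to starvation in ρ0 cells was 0.09 (SE 0.55, adjusted p = 0.923, edgeR) with both libraries, 1.55 without replicate 1 and -0.61 without replicate 2. The difference between the lines in full medium was likewise 0.02 with both, -1.44 without replicate 1 and 0.78 without replicate 2, so no direction is given for either. Under starvation, where no ρ0 control library enters the fold, FN1 was 3.64-fold higher in ρ0 cells (adjusted p = 0.0206, edgeR), a call lost without any of the 4 starved libraries (adjusted p = 0.0613 to 0.0987).

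The spread of the ρ0 control pair also entered the shared estimate of error for FN1. Without either ρ0 control library the parental fall kept its size, at -1.77 and -1.72, with adjusted p = 1.22e-16 and 8.21e-16 (edgeR). Leaving out any parental library instead raised the adjusted p to between 0.0775 and 0.114.

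Promoter windows of the 250 bases before a start site were found in RefSeq (GRCh38.p14) for 5 of the 10 members, namely CDH2, VIM, FN1, ZEB1 and ZEB2. That of FN1 is shown because it holds a rare pattern. The window (chr2:215436069-215436318, minus strand) held the palindrome TGACGTCA, a cyclic AMP response element, 183 bases before the start, as 1.65% of windows do. The palindrome is in capitals.
FN1 promoter window: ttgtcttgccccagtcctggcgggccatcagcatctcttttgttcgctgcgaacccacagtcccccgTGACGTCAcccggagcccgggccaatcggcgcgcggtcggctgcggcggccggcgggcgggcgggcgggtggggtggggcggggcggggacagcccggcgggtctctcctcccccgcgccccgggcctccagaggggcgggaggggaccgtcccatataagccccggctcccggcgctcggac

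CDH2, the cadherin gained in many cells with EMT, was close to its detection limit throughout. Its counts were 7 and 3 in parental control libraries, 6 and 6 after starvation, 11 and 22 in ρ0 control libraries, and 6 and 6 in starved ρ0 libraries. In full medium it was 3.47-fold higher in ρ0 cells (log2 fold change 1.75, SE 0.49), at a mean of 0.545 ± 0.230 CPM, the group through which it had passed the filter. Its call there (adjusted p = 0.0153, edgeR) is therefore no support for a difference, and it was lost in DESeq2 (adjusted p = 0.0782) and without ρ0 control replicate 2 (adjusted p = 0.0791) or parental control replicate 2 (adjusted p = 0.103). The other contrasts of CDH2 did not pass with all libraries, with log2 values of 0.48 for starvation in parental cells and -1.28 in ρ0 cells. Without ρ0 control replicate 1, the response in ρ0 cells (-1.64) and the interaction (-2.11) did pass. Both directions were built in as well, since CDH2 entered the test through the ρ0 control libraries. Neither is support for a difference.

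**Figure D2:**
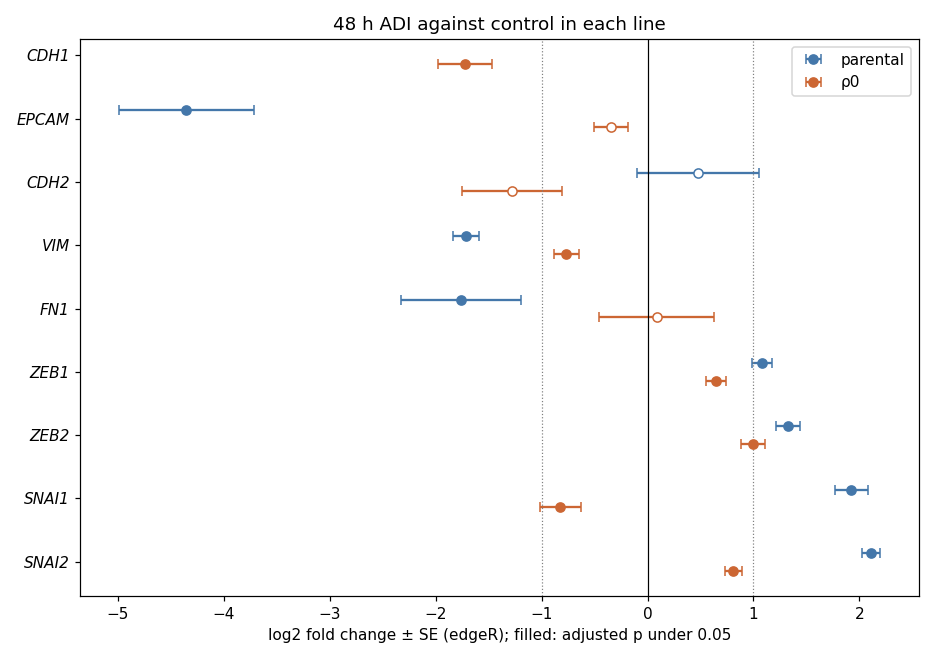
Log2 fold change of ADI against control (x axis; error bars, SE from edgeR) for the tested members in parental and ρ0 cells, with filled symbols at an adjusted p under 0.05 and dotted lines at a log2 fold change of 1 and -1. SNAI1 stands on opposite sides of 0 in the 2 lines; CDH1 in parental cells is left out because both groups are at the floor of 3 counts, and the EPCAM value in parental cells is a fitted value against a group near 0.

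SNAI2 (Slug), a zinc-finger repressor, had 19.7 and 18.9 CPM in parental control libraries and 80.0 and 87.0 CPM in starved ones. In ρ0 cells it had 86.8 and 80.3 CPM in full medium and 147 and 145 CPM under starvation. The ρ0 controls thus stood where parental cells stood after starvation, and these neighbouring groups, both with a mean of 83.5 CPM, overlapped. The starvation response was 2.11 (log2, SE 0.09, adjusted p = 6.69e-06) in parental cells and 0.81 (SE 0.08, adjusted p = 0.000418) in ρ0 cells. Between the lines SNAI2 was 4.32-fold higher in ρ0 cells in full medium (adjusted p = 2.22e-06) and 1.75-fold higher under starvation (adjusted p = 9.61e-05, all by edgeR). Per kilobase it held 35.7 and 33.1 CPM per kb in the ρ0 control libraries, between the 45.1 and 10.0 CPM per kb of FN1.

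SNAI1 (Snail), the related repressor, moved in opposite directions in the lines. Its counts were 198 and 151 in parental control libraries, 492 and 647 after starvation, 61 and 71 in ρ0 control libraries, and 40 and 27 in starved ρ0 libraries. The order of the groups was parental starved, parental control, ρ0 control and ρ0 starved, with no overlap between neighbours. SNAI1 rose 3.79-fold in parental cells (log2 fold change 1.92, SE 0.15, adjusted p = 4.03e-05, edgeR) and fell 1.78-fold in ρ0 cells (log2 fold change -0.82, SE 0.20, adjusted p = 0.0132, edgeR). The fall in ρ0 cells missed the threshold when only the ρ0 libraries were fitted (adjusted p = 0.0848) or ρ0 ADI replicate 2 was left out (adjusted p = 0.0962). In full medium SNAI1 was 2.54-fold lower in ρ0 cells, and under starvation 17.2-fold lower (adjusted p = 2.55e-06, edgeR). SNAI1 and SNAI2, which recognise the same E-box core, therefore differed between the lines in opposite directions.

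ZEB1, a zinc-finger and homeobox repressor of CDH1, had 97.9 and 95.7 CPM in parental control libraries, 201 and 208 CPM in starved ones, 76.1 and 63.9 CPM in ρ0 control libraries and 109.9 and 109.5 CPM in starved ρ0 libraries. It was higher after starvation in every library of each line, and in each medium the ρ0 libraries were lower. The response was 1.08 (log2, SE 0.10, adjusted p = 5.99e-05) in parental cells and 0.65 (SE 0.10, adjusted p = 0.00181) in ρ0 cells. ZEB1 was 1.38-fold lower in ρ0 cells in full medium (adjusted p = 0.00365) and 1.86-fold lower under starvation (adjusted p = 0.00012, all by edgeR). The antisense transcript ZEB1-AS1 had 424 and 330 counts in parental control, 321 and 326 in parental starved, 101 and 109 in ρ0 control and 170 and 143 in ρ0 starved libraries. The strand setting of the counting is not stated, and reads of the gene and of its antisense partner cannot be told apart where they overlap.

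The promoter of ZEB1 is shown because the factors that rose with it in parental cells bind such a pattern elsewhere. The E-box CACCTG, or its reverse CAGGTG, is the letter pattern that SNAI and ZEB proteins recognise. All 7 windows of ZEB1 were searched. The first held the pattern once, 57 bases before the start, and the third (chr10:31318966-31319215, GRCh38.p14, plus strand) held it at 242 and 85 bases before the start, where 17.5% of 35116 windows hold it at least once and 2.53% hold it 2 times or more. These shares are per window, and the window shown is the one of the 7 with the most copies. The pattern is in capitals.
ZEB1 promoter window: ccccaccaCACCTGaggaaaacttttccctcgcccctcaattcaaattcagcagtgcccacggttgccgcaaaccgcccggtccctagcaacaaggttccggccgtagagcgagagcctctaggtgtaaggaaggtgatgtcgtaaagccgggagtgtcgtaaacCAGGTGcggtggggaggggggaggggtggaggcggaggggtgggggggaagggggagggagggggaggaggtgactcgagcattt

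ZEB2, the paralog of ZEB1, had 20.1 and 17.1 CPM in parental control libraries and 45.7 and 47.4 CPM in starved ones. In ρ0 cells it had 19.9 and 22.3 CPM in full medium and 40.9 and 43.4 CPM under starvation. The starved libraries of both lines lay above every control library, and the lines overlapped in full medium. In parental cells ZEB2 rose by 1.33 (log2, SE 0.11, adjusted p = 5.39e-05), and by 0.998 in ρ0 cells (SE 0.11, adjusted p = 0.000647), the latter just under the fold threshold. The differences between the lines, 0.18 in full medium (SE 0.11, adjusted p = 0.199) and -0.14 under starvation (adjusted p = 0.284, all by edgeR), did not pass in the fit of all libraries. The first passed without ρ0 control replicate 1 (0.26), in a fit that the spread of the control pair no longer enters. The second passed with only the starved libraries fitted (-0.12, adjusted p = 0.0311, edgeR). Pseudogenes of SNAI1 and ZEB2 are annotated, and the counting could have assigned some reads of these genes to them.

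The mature sequences of the miR-200 family are shown because this family represses ZEB1 and ZEB2 in many cells, and its members fall into a pair of seed groups. Seeds (bases 2 to 8) are in capitals, and sequences are from RefSeq.
hsa-miR-200b-3p: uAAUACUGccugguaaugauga
hsa-miR-200c-3p: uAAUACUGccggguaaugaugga
hsa-miR-429: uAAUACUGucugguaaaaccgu
hsa-miR-200a-3p: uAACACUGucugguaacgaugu
hsa-miR-141-3p: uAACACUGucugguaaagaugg

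The DNA letters complementary to these seeds are CAGTATT for the first 3 and CAGTGTT for the other pair. In the longest annotated 3′ UTR of each gene (GENCODE v29), ZEB1 held 6 and 3 of these matches and ZEB2 held 5 and 4, so that each had 9. At least 9 were found in 6 of 19133 genes (0.0314%), ZEB1 and ZEB2 among them, and any match in 28.2%. Among the other members FN1 had 2 and SNAI2 had 1, and the remaining 6 had none. The first match of each kind is shown with its left neighbours, with the match in capitals.
ZEB1 CAGTATT site: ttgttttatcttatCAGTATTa
ZEB1 CAGTGTT site: aaaatcatcagaatCAGTGTTt
ZEB2 CAGTATT site: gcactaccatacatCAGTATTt
ZEB2 CAGTGTT site: gcaaaaattttgtaCAGTGTTa

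A seed match is a run of letters and not a measured binding site. These libraries do not measure mature microRNAs. The loci MIR200A, MIR200B, MIR200C and MIR141 had 0 counts in all 8 libraries, and MIR429 had a single count in 2 of them. The transcripts of ZEB1 and ZEB2, which share these matches, both rose with starvation in each line, by 1.08 and 1.33 in parental cells and by 0.65 and 0.998 in ρ0 cells.

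The windows of the members held no copy of TGATGCAA or its reverse TTGCATCA, the pattern of ATF4 with a C/EBP partner, found in 0.772% of all windows. These patterns describe the letters of the windows only. Binding of the factors was not measured.

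TWIST1, a basic helix-loop-helix factor of EMT, had no read in any library. With 3 counts as the limit that a count of 0 allows, its level lay under 0.0899 to 0.124 CPM, depending on the library, and no contrast could be tested.

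**Figure D3:**
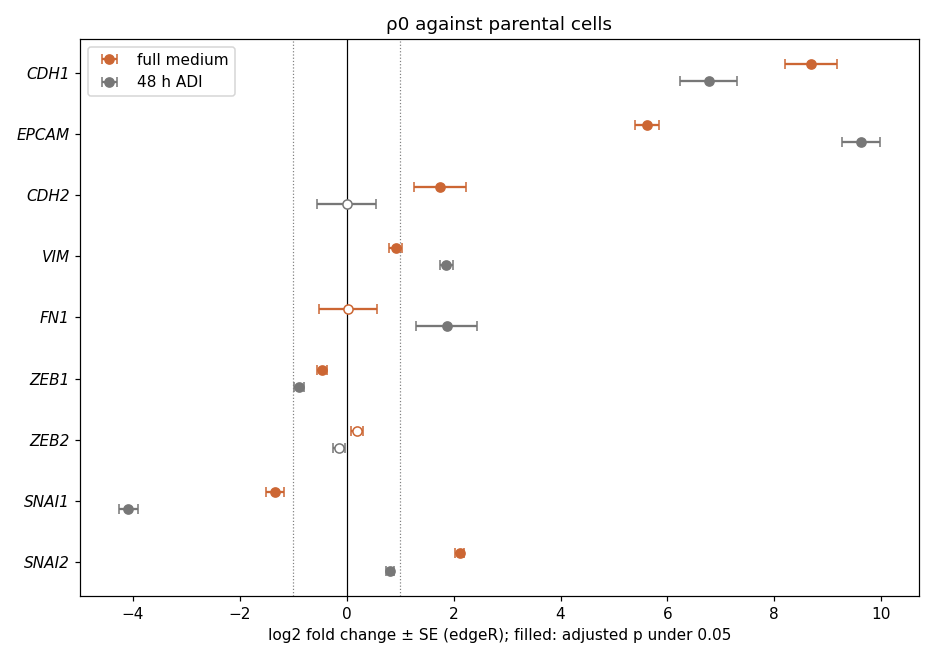
Log2 fold change of ρ0 against parental cells (x axis; error bars, SE from edgeR) in full medium and after 48 h of ADI, with filled symbols at an adjusted p under 0.05 and dotted lines at 1 and -1. CDH1 and EPCAM lie farthest to the right, as fitted values against groups at or near 0 counts (EPCAM in full medium excepted), and SNAI1 lies to the left in both media.

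The question whether starvation acted unequally in the lines was tested by the interaction, the ρ0 response minus the parental response. It passed an adjusted p of 0.05 for 5 of 9 members, 2 higher and 3 lower in ρ0 cells, against 40.4% of all genes (21.6% higher and 18.8% lower). SNAI1 differed by -2.75 (log2, SE 0.25, adjusted p = 0.00044), SNAI2 by -1.30 (SE 0.12, adjusted p = 0.000422) and VIM by 0.95 (SE 0.17, adjusted p = 0.00471). EPCAM differed by a fitted 4.01 (adjusted p = 0.00415), with 0 and 1 counts in the starved parental libraries. ZEB1 differed by -0.43 (SE 0.13, adjusted p = 0.0379, all by edgeR) and lost the call without any of the 6 libraries other than the ρ0 controls (adjusted p = 0.0985 to 0.135) and in 4 of the 8 alternative fits of all libraries (adjusted p = 0.0509 to 0.0786). The induction of SNAI2 was thus smaller in ρ0 cells, that of SNAI1 turned into a fall, and the fall of VIM was smaller. ZEB2 (-0.33, adjusted p = 0.142, edgeR), CDH1 and CDH2 did not pass. Without ρ0 control replicate 1, ZEB2 (-0.40) and CDH2 (-2.11) did, the latter in a direction that the filter had built in. FN1 was at 1.85 (SE 0.78, adjusted p = 0.0974, edgeR), and at 3.31 or 1.11 without ρ0 control replicate 1 or 2.

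Among the members other than FN1, leaving out either ρ0 control library changed no direction of a called value. The response of VIM in ρ0 cells was -0.91 without replicate 1 and -0.59 without replicate 2, and that of CDH1 was -1.63 and -1.79. For the factors it was -0.87 and -0.75 for SNAI1, 0.87 and 0.77 for SNAI2, 0.78 and 0.54 for ZEB1, and 0.92 and 1.09 for ZEB2. That of CDH2 was -1.64 and -0.75, of which only the first passed, in a direction that the filter had built in. The fitted difference between the lines in full medium was 8.60 and 8.81 for CDH1 and 5.57 and 5.71 for EPCAM. The difference of VIM was 1.06 and 0.81, that of SNAI1 -1.29 and -1.35, that of SNAI2 2.05 and 2.22, that of ZEB1 -0.60 and -0.29, that of ZEB2 0.26 and 0.15, and that of CDH2 2.11 and 1.28. The last value of ZEB2 and the last of CDH2 did not pass.

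**Figure D4:**
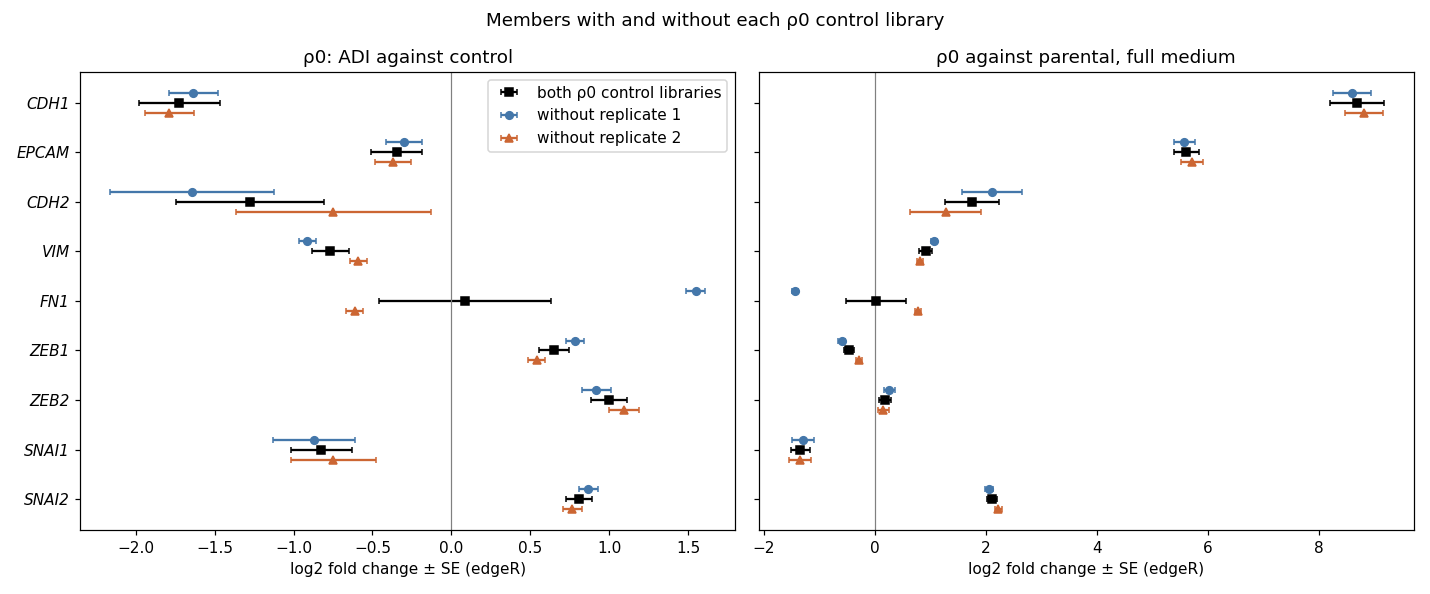
Log2 fold change (x axis; error bars, SE from edgeR) of the tested members for ADI against control in ρ0 cells (left) and for ρ0 against parental cells in full medium (right), with both ρ0 control libraries, without replicate 1 and without replicate 2. FN1 changes sign between the fits, and the called values of the other members keep theirs.

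Per kilobase, the order of the members in parental control cells was VIM (932 CPM per kb), FN1 (27.2), ZEB1 (15.0), SNAI2 (7.95), SNAI1 (3.32), ZEB2 (1.39), EPCAM (0.234), CDH2 (0.0353) and CDH1 (0.00603). After starvation the mean levels of SNAI2 (34.4) and ZEB1 (31.8) stood next to each other and above SNAI1 (12.6) and FN1 (8.02), and VIM led at 284. The libraries of SNAI2 (33.0 and 35.8) and ZEB1 (31.3 and 32.3) did not overlap. In ρ0 control cells VIM (1758) led, with SNAI2 (34.4), EPCAM (11.5) and ZEB1 (10.9) below it, the last pair with overlapping libraries. FN1 (27.5 as a mean) has no fixed place there, since its libraries held 45.1 and 10.0 and thus lay above SNAI2 in one and below ZEB1's mean in the other. In starved ρ0 cells SNAI2 (60.2) stood above FN1 (29.2), ZEB1 (17.0) and EPCAM (9.02).

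The members were also set against each other over the 8 libraries, as a description of libraries that share lines and treatments. Pearson's r of log2 CPM was 0.945 between CDH1 and EPCAM, -0.952 between EPCAM and SNAI1, and -0.813 between CDH1 and SNAI1. ZEB1 and VIM had r = -0.983, the most negative of the pairs. SNAI2 had r = 0.618 with CDH1 and -0.025 with VIM. The genes most like each member over all 8 libraries were TRIM29 for CDH1 (r = 0.9973), CUL4B for EPCAM (0.9986), MIEF2 for VIM (0.9973), GPX8 for FN1 (0.9912), SCML1 for ZEB1 (0.9995), SERINC5 for ZEB2 (0.9977), CRABP2 for SNAI1 (0.9967), ZNF506 for SNAI2 (0.9983) and YY2 for CDH2 (0.9875).

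Further genes of the pathway were taken as lists, described by their counts at an adjusted p under 0.05 and any fold. Of 56 epithelial genes (junction proteins, keratins and their regulators) 48 were tested. In full medium 30 were higher and 6 lower in ρ0 cells at any fold, against 30.5% and 31.8% of all genes, and the median log2 difference was 1.12 where that of all genes was -0.01. Under starvation 34 were higher and 5 lower, against 32.9% and 33.5%, with a median of 1.04. Several of these genes, among them CLDN3 and TP63, passed the filter only through ρ0 libraries and had to be higher there. These counts and medians are therefore no support for a difference of the list. With at least 10 counts required in every library, the genes of the list past the fold threshold went from 27 to 16 in full medium and from 31 to 18 under starvation. The summed level of the list was 2066 to 2092 CPM in the parental libraries, 5054 to 5303 CPM in ρ0 control libraries and 4298 to 4376 CPM in starved ρ0 libraries. KRT7, a simple-epithelial keratin, had 112 and 87 counts in parental control and 20000 and 38390 in ρ0 control libraries, a log2 difference of 8.24. LSR, a tricellular junction protein, had 6 and 8 against 1892 and 2259 counts. AP1M2, an epithelial sorting adaptor, was lower in ρ0 cells (-0.99), as was the tight junction gene CLDN1 (-0.41). GRHL2, OVOL1 and RAB25, which many epithelial cells express, had at most 8 counts in any library.

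With starvation, more genes of the epithelial list fell than rose in both lines, which also held for all tested genes. In parental cells 11 rose and 20 fell (median -0.56), against 30.4% and 35.5% of all genes, and in ρ0 cells 10 rose and 18 fell (median -0.28), against 19.2% and 22.1%. The medians of all genes were -0.07 and -0.02. OVOL2 passed the filter only through the parental control libraries and ESRP1 only through the starved ρ0 libraries. The fall of OVOL2 in parental cells and the rise of ESRP1 in ρ0 cells were thus built in. These counts and medians are no support for a response of the list. KLF4, a zinc-finger factor of epithelia, rose by 2.30 in parental and 1.25 in ρ0 cells, and KLF5 rose by 1.77 in parental cells. SPINT1, an inhibitor of epithelial serine proteases, fell by 3.02 in parental cells. CLDN7, a tight junction protein, fell by 3.35 in parental cells and rose by 1.14 in ρ0 cells, an interaction of 4.49 (adjusted p = 0.00774, edgeR). Its parental counts were 39 and 46 in full medium and 4 and 3 under starvation. In ρ0 cells CLDN7 had 1731 and 793 counts in full medium and 2823 and 2254 under starvation. The size of its rise there thus depended on the control library used. In ρ0 cells KRT8 fell by 2.23 and AP1M2 by 2.17. Under starvation CLDN7 and ELF3, an epithelial ETS factor, were a fitted 9.45 and 8.06 higher in ρ0 cells. These were the largest differences between the lines among genes of the list averaging 10 CPM or more. Both are fitted against starved parental libraries near the floor, with 4 and 3 counts for CLDN7 and 5 and 6 for ELF3. AP1M2 (-1.91) and KLF5 (-1.62) were lower in ρ0 cells.

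Of 55 mesenchymal genes 45 were tested. Starvation lowered 26 and raised 5 in parental cells (median -0.83), against 35.5% and 30.4% of all genes. In ρ0 cells it lowered 19 and raised 2 (median -0.38), against 22.1% and 19.2% of all genes. SPARC would not have passed the filter without the control libraries, so that its fall was built in. These counts and medians are therefore no support for a response of the list. Among genes of the list averaging 10 CPM or more, TGFBI (-3.95), a matrix protein, had the largest fall in parental cells. S100A4 (-3.78), a calcium-binding protein of motile cells, came next. In ρ0 cells the largest falls within the same limit were those of NES (-2.22), an intermediate filament, and MYL9 (-1.97), a myosin light chain. FGFR1 (0.84) and TAGLN2 (0.53) rose in parental cells, and CYR61 (0.65) rose in ρ0 cells. Between the lines in full medium the list went both ways, 19 higher and 15 lower in ρ0 cells, against 30.5% and 31.8% of all genes. S100A4 (4.78) and TGFBI (3.53) were higher there. GJA1, a gap junction protein, fell from 1937 and 1650 counts in parental control libraries to 3 and 2 in ρ0 control libraries, and WNT5A, a secreted ligand, from 1019 and 879 to 4 and 2. GJA1 and WNT5A passed the filter only through parental libraries and had to be lower in ρ0 cells, as LUM had to be higher. The counts and median of the list between the lines, here and under starvation, are therefore no support for a difference. Under starvation 23 of the list were higher and 12 lower in ρ0 cells, against 32.9% and 33.5%, and the median was 0.58. The ρ0 cells thus held more transcript of both CDH1 and VIM.

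Beside the 5 members, 35 other EMT transcription factors were listed and 28 tested. In ρ0 cells 3 were higher and 20 lower in full medium, against 30.5% and 31.8% of all genes, with a median of -0.66. Some factors, such as FOXA1 and TCF4, passed the filter only through parental libraries and had to be lower in ρ0 cells. The counts and the median are therefore no support for a difference of the list. LEF1, a partner of beta-catenin, was lower (-4.08), as was SOX4 (-2.29), and RUNX2 was higher (1.27). Starvation raised 10 and lowered 8 in parental cells (median 0.24), against 30.4% and 35.5% of all genes, and raised 11 and lowered 5 in ρ0 cells (median 0.31), against 19.2% and 22.1%. TCF4 and KLF17 would not have passed the filter without control libraries, so that their falls with starvation were built in. These counts and medians are likewise no support for a response of the list. FOXC1 rose by 1.83 and FOXO1 by 1.26 in parental cells, where RUNX2 (-1.21) and FOXQ1 (-1.10) fell. FOXO1 (1.42) and ETS1 (1.05) rose in ρ0 cells, and FOXQ1 (-0.48) fell. The interaction passed for 7 factors higher and 2 lower in ρ0 cells, against 21.6% and 18.8% of all genes, among them TFAP2C (1.46) and RUNX2 (1.42). The number called changed widely when any library was left out.

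Of 26 genes of TGF-beta signalling, a main inducer of the SNAI and ZEB factors, 25 were tested. Starvation raised 10 and lowered 7 in parental cells, against 30.4% and 35.5% of all genes, and raised 11 and lowered 4 in ρ0 cells, against 19.2% and 22.1%. In parental cells SKIL, an inhibitor of SMAD proteins, rose by 1.91 and the co-repressor TGIF2 by 1.10, while TGFBR3, a co-receptor, fell by 2.81 and LTBP3, a latency protein, by 1.58. In ρ0 cells TGIF1 (1.31) and LTBP1 (1.01) rose and LTBP2 (-0.85) and PMEPA1 (-0.75) fell. The ligand TGFB2 was higher in ρ0 cells in full medium by 2.42 and the decoy receptor BAMBI by 1.16, and LTBP1 (-1.58) and LTBP4 (-1.51) were lower. The interaction passed for 8 higher and 7 lower in ρ0 cells, against 21.6% and 18.8% of all genes, led by TGFBR3 (2.38) and SKIL (-1.62). The number called changed widely when any parental library was left out.

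Of 34 genes for partners of the factors and for proteins that turn them over, 32 were tested. In parental cells 16 rose and 10 fell, against 30.4% and 35.5% of all genes. SIRT1, a deacetylase that ZEB1 can recruit, rose by 2.17 and FBXO45, a ligase component for EMT factors, by 1.26, while GSK3B, the kinase that marks SNAI1 for degradation, fell by 1.48 and FBXL5 by 1.39. In ρ0 cells 13 rose and 7 fell, against 19.2% and 22.1%. SIRT1 rose by 1.65 and the co-repressor CTBP2 by 0.96, and the methyltransferases EZH2 (-1.27) and SUV39H1 (-1.13) fell. In full medium 7 were higher and 11 lower in ρ0 cells, against 30.5% and 31.8% of all genes, AJUBA (2.27) and EZH2 (1.99) among the former and CTBP2 (-0.85) among the latter. The interaction passed for 8 higher and 10 lower in ρ0 cells, against 21.6% and 18.8% of all genes, numbers that changed widely when any starved library was left out. FBXL5 (1.13) and GSK3B (1.06) were among the former, and AJUBA (-1.11) and EED (-0.98) among the latter. The part of these genes in the response of SNAI1 was not tested.

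**Figure D5:**
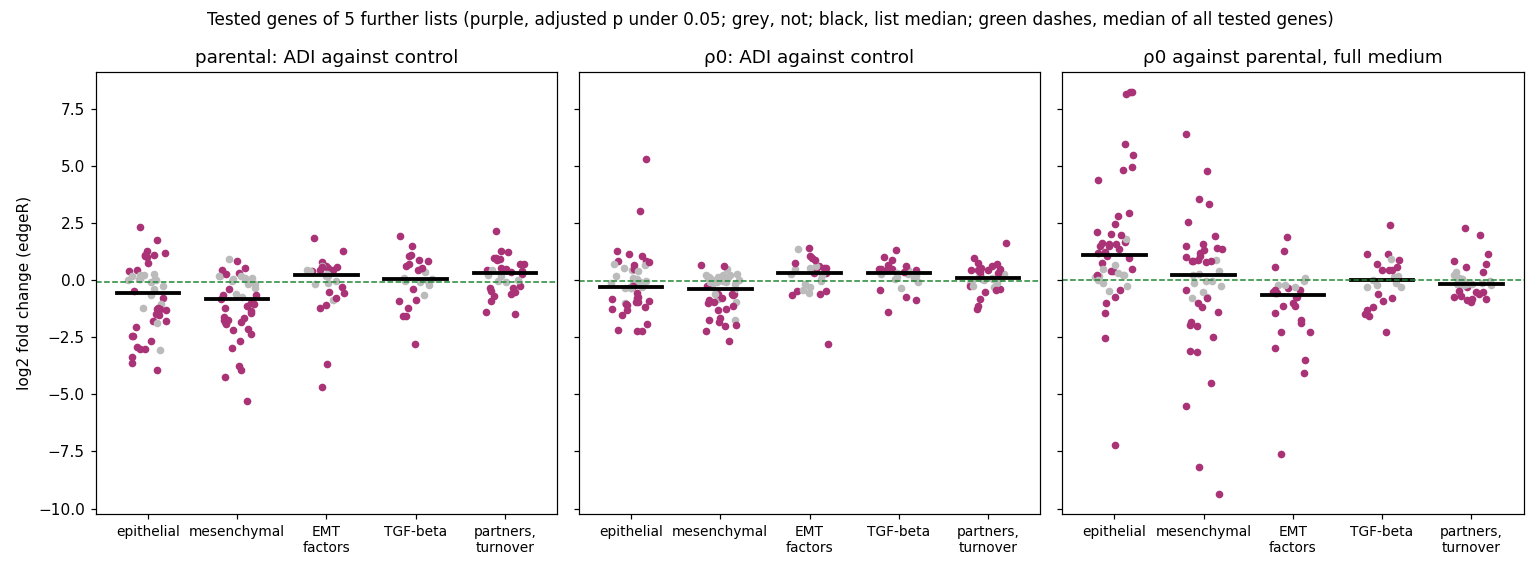
Log2 fold change (y axis, edgeR) of each tested gene of the 5 further lists in 3 comparisons, with purple points at an adjusted p under 0.05, grey points above it, black bars at the list median and a green dashed line at the median of all tested genes. The epithelial list lies above the dashed line in ρ0 against parental cells (median 1.12) and the mesenchymal list lies below it for starvation in parental cells (median -0.83).

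Of 16 markers of line identity and other cell types 11 were tested, and some moved with the line. In full medium 5 were higher in ρ0 cells (ASS1, LUM, TFF1, PECAM1 and ERBB2) and 2 lower (COL3A1 and VWF), against 30.5% and 31.8% of all genes. Their summed level was 85.2 to 89.5 CPM in parental control libraries, 44.8 to 45.0 CPM in starved parental libraries, 126 to 140 CPM in ρ0 control libraries and 96.3 to 100.3 CPM in starved ρ0 libraries, and 1 to 7 of the 16 were at 0 in a library. ASS1, LUM and TFF1 passed the filter only through ρ0 libraries, and COL3A1 and VWF would not have passed without the parental ones. The directions of these calls were thus built in, and the counts called are no support for a difference. TFF1 of luminal breast cells had 3, 4, 0 and 0 counts in parental libraries and 70, 262, 70 and 42 in ρ0 libraries. LUM of fibroblasts had 0 to 2 against 44 to 160 counts. Other markers of these cells did not follow. FOXA1, a factor of luminal cells from the list of factors, had 245, 212, 236 and 277 counts in the parental libraries and 1, 1, 4 and 1 in the ρ0 libraries. The fibroblast collagen COL3A1 was lower in ρ0 cells in full medium, with 31 and 39 against 6 and 5 counts, and DCN of fibroblasts had at most 2 counts in any library. COL1A1 lay between 5.64 and 16.0 CPM in all 8 libraries. Their part in the differences of CDH1, EPCAM and the other members between the lines was not tested.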

How the data were processed

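Read counts per gene symbol were deposited by the authors as raw whole numbers, without normalization and with replicates kept apart. The submitters' processing notes name hg19, Bowtie and Partek, without versions, roles or order. The annotation, the strand setting and the test are not given in the sources used here, whereas thresholds are.

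The tests were run in edgeR 4.0.16 (R 4.3.3). Genes were kept by filterByExpr on the 4 groups (15262 of 23393), scaled by TMM and fitted with the quasi-likelihood test over all 8 libraries with 1 mean per group, which left 4 residual degrees of freedom. P-values were adjusted by Benjamini-Hochberg over all tested genes. SEs were obtained as log2 fold change over the root of the F statistic. Calls needed an adjusted p under 0.05 with a log2 fold change past 1 in either direction, or an adjusted p under 0.05 at any fold where stated. The interaction had no fold threshold. Where every library of a group had 3 counts or fewer, the fold was computed against a floor of 3 counts per library. Intervals and floors cover counting error only. CPM per kilobase used the merged exons of GENCODE v29. The scripts for tests across genes were tested on simulated data.

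The members and the further lists were chosen with earlier results of these data known. All members are named. From each further list the text names the 2 largest rises and 2 largest falls per comparison among genes at an adjusted p under 0.05 that averaged 10 CPM or more and whose groups did not overlap (fewer for the starved lines and the interaction, and some genes are not reported here). GRHL2, OVOL1, OVOL2, ESRP1, RAB25, FOXA1, CLDN3, TP63, TCF4, KLF17 and SPARC were chosen after their values were seen. So were the markers of line identity and other cell types that are named. For likeness, the gene with the highest r among tested genes with a mean of at least 1 CPM is given. Alternatives were other scalings (upper quartile, total counts, DESeq2 size factors), all genes unfiltered, at least 10 counts in every library, DESeq2 1.42.0, limma-voom (limma 3.58.1), the replicate number as a block, only the groups compared, and leaving out each library.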

Additional observations from a re-analysis of the deposited data

Results flagged for a closer look

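The responses of 5 members to arginine starvation differed between the lines by the test of the interaction (ρ0 minus parental, log2, edgeR). The difference was 4.01 for EPCAM, -2.75 for SNAI1, -1.30 for SNAI2, 0.95 for VIM and -0.43 for ZEB1. SNAI1 rose in both starved parental libraries and fell in both starved ρ0 libraries. SNAI2 and ZEB1 rose in both lines, and VIM fell in both. The value of EPCAM is a fitted one, with 0 and 1 counts in the starved parental libraries. Line, clone and medium cannot be told apart in these differences.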

How the results depend on the processing

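Calls on single members that changed their side of the threshold are given here or beside the values above. The number of members called for starvation in ρ0 cells was 1, and became 2 with DESeq2 size factors, with no filter, with the DESeq2 test and with only the groups compared, since the log2 change of ZEB2 lay at 0.998. With at least 10 counts in every library, which removes CDH1, CDH2 and EPCAM, it was 0 by edgeR (5 at any fold), and the counts between the lines were 2 in full medium and 3 under starvation (5 each as reported). Leaving out each library gave 1 to 3 members for starvation in ρ0 cells, with 3 without ρ0 control replicate 1, and 4 to 8 for the interaction, with 8 without that library. Without ρ0 control replicate 1, CDH2 passed for starvation in ρ0 cells (-1.64) and for the interaction (-2.11), in directions that the filter had built in. In the same fit ZEB2 passed between the lines in full medium (0.26) and for the interaction (-0.40). ZEB2 also passed between the starved lines with only the groups compared (-0.12, adjusted p = 0.0311). FN1 reversed to -1.44 between the lines in full medium without ρ0 control replicate 1, and to -0.61 for starvation in ρ0 cells without replicate 2; without the other library these were 0.78 and 1.55. With 1 library left in a group, that library is assumed to vary like the other groups. In a fit with the replicate number as a block, 7, 1, 5, 5 and 4 members were called in the 5 comparisons, and ZEB1 lost the interaction (adjusted p = 0.0509). Deviations with the same replicate number correlated at -0.053 to 0.039 over all tested genes. A correlation over all genes cannot decide whether libraries of the same number were paired in part of them. ZEB1 also lost the interaction under upper quartile scaling (adjusted p = 0.0786), with total counts (adjusted p = 0.0673) and with no filter (adjusted p = 0.0534), thus in 4 of 8 alternatives, over a range of 0.0256 to 0.0786. Upper quartile scaling and total counts moved the median of all genes in starved parental cells from -0.07 to -0.19 and -0.23. The numbers called in the further lists were less stable. For the interaction, those of the EMT factors, TGF-beta signalling and the partners changed widely when single libraries were left out, and the number over all genes changed too. For starvation in ρ0 cells, 11 mesenchymal genes were past the fold threshold, a number that changed widely in 7 alternatives, limma-voom among them. With 2 libraries per group, precision is limited most for FN1 and for CDH2, CDH1 and EPCAM at low counts.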
